A study of Mus musculus with 13 samples.

Results

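The genes described here are 10 genes of adipogenesis, the formation of fat cells, chosen by name from the 55487 genes counted by RNA-seq in primary mouse embryonic fibroblasts (MEFs) and in lines that had become immortal on their own. They are the transcription regulators Pparg, Cebpb, Cebpd and Zfp423, the lipid handling genes Fabp4, Lpl and Cd36, the lipid droplet coat genes Plin1 and Plin2, and the hormone gene Adipoq. Each symbol mapped to 1 gene identifier in both deposited count tables. The choice used no measured value, although earlier results of these data were known when it was made.

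Poly-A RNA was sequenced from 13 cultures. The wild-type (WT) libraries were 3 primary MEF cultures, numbered 3, 4 and 5 after the embryos they came from, and the 3 immortalized lines grown from them. The other 7 libraries carry the label Prkd3-/- and are 3 primary cultures, numbered 13, 14 and 15, and 4 immortalized lines, numbered 13, 13a, 14 and 15. All cells were grown in high-glucose DMEM with 10% fetal calf serum (FCS), which was raised to 20% once the cultures were senescent, until colonies of growing cells gave the lines. Per the methods, given for the WT cells, the lines were then expanded with 10% FCS again. The labels name no induction of fat cell formation in any culture. Each line is thus an outgrowth of a primary culture and was sequenced once. Nothing in the labels says whether 13 and 13a grew from the same dish or are separate outgrowths. The 2 genotype labels came in separate tables, so genotype and batch cannot be told apart.

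In adipogenesis, C/EBPβ and C/EBPδ, the products of Cebpb and Cebpd, act early and induce Pparg, whose product PPARγ is the master regulator of the fat cell program. Zfp423 encodes a zinc finger protein of committed preadipocytes. PPARγ and C/EBP factors then switch on the genes of the mature fat cell, among them Fabp4, Lpl, Cd36, Plin1 and Adipoq, while Plin2 coats small lipid droplets in many cell types. Fibroblasts of the embryo hold progenitors that can enter this path under hormones. Several of these genes are also used outside fat, since macrophages express Cd36, Lpl and Fabp4, and endothelial cells express Cd36 and Fabp4.

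Totals ran from 35273408 to 100441756 counts per library, so that 3 counts, the floor used below, equal 0.0299 to 0.0850 CPM by total counts alone. Levels are given in CPM, which are counts put on 1 scale for library size with the TMM factors of all 13 libraries. On this scale 3 counts equal 0.0405 to 0.0573 CPM in the 7 immortalized lines. Between replicates, the coefficient of variation beyond sampling noise was 4.14% to 6.79% in the WT primary and 45.4% to 53.2% in the WT immortalized libraries, and 15.6% to 42.1% and 48.3% to 75.7% in the Prkd3-/- primary and immortalized libraries. Prkd3 itself had 69.2 to 93.7 CPM in the WT libraries and 33.6 to 61.0 CPM in those labelled Prkd3-/-, and counts per gene cannot show the loss of single exons, so the label is used as a name. All 10 fibroblast markers examined were above 3 counts in the primary libraries. The summed CPM of 12 macrophage markers was 1490 to 1529 in the WT primary and 58.8 to 136.5 in the WT immortalized libraries. It was 160.6, 2137 and 393.0 in Prkd3-/- primary cultures 13, 14 and 15, and 17.8, 337.9, 13.2 and 20.2 in lines 13, 13a, 14 and 15. In line 13, 8 of the 12 were at 0 counts (Adgre1, C1qa, C1qc, Cx3cr1, Fcgr1, Mrc1, Spi1 and Tyrobp), while all 12 were above 3 counts in every primary culture and in line 13a.

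RefSeq promoter windows, each from 250 bases before to 50 bases after a transcript start (GRCm38.p6), were found for 7 of the 10 genes. Pparg has 3 of them, since it is transcribed from several starts that the counts per gene cannot separate, and a downstream start is known for the form of PPARγ enriched in fat cells. The most upstream and the most downstream Pparg windows are shown to compare these starts, beside Cd36 and Plin2, a gene of fatty acid uptake that was low in most lines and a droplet coat gene that was detected in all of them. Capitals mark matches, on either strand, to the core motif AGGTCA of nuclear receptors such as PPARγ, to the C/EBP motif TTGCNNAA and to the E-box CACGTG.
Pparg, upstream start, chr6:115360894-115361193, plus strand: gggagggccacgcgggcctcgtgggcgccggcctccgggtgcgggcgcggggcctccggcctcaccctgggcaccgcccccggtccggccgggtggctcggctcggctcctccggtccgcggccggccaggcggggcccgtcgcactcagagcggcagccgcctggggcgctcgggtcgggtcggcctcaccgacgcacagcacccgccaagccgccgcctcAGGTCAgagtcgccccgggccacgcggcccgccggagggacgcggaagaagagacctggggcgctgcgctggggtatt
Pparg, downstream start, chr6:115421816-115422115, plus strand: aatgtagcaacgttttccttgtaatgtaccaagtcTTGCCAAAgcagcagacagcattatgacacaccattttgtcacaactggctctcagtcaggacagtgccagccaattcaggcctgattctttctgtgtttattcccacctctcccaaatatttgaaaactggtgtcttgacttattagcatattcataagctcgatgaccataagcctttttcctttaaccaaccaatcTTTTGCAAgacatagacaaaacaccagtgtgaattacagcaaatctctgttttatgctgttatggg
Cd36, chr5:17835847-17836146, minus strand: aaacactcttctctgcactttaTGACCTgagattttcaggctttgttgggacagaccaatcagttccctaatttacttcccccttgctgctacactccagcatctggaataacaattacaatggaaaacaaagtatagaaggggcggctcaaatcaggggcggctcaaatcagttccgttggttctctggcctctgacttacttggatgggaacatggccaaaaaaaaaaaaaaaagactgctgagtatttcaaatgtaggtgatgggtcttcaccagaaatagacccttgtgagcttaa
Plin2, chr4:86670010-86670309, minus strand: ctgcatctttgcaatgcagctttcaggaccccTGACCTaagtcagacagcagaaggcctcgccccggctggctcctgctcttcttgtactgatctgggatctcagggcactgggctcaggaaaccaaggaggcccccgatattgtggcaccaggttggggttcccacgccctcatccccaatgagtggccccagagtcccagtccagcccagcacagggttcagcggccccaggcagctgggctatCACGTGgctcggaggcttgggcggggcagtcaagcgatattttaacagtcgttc

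The upstream Pparg window held 1 receptor motif, 28 bases before the start, and no C/EBP match. The downstream Pparg window held the reverse, with 2 C/EBP matches, 215 and 16 bases before the start, and no receptor motif. The Cd36 window held 1 receptor motif, 228 bases before its start. This window lies inside the annotated gene (chr5:17781690-17888801, minus strand), so the annotation begins upstream of this start. Counts per gene cannot show which Cd36 start was used. Plin2 held 1 receptor motif, 218 bases before the start, with an E-box that begins 4 bases before it. Of all 32851 windows of this length, 16.3% held the receptor motif, 10.8% the C/EBP motif and 7.15% the E-box. The receptor motif repeated in 1 direction with 1 base between, the form bound by PPARγ with its partner RXR, was in none of the windows of these genes and in 0.0396% of all windows. A match is a description of letters and not a measured binding site.

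Among the regulators, Pparg (chr6:115360951-115490399, plus strand) was counted in every library at a low level. Primary WT cultures 3, 4 and 5 had 6.18, 6.07 and 8.03 CPM of Pparg, and their lines had 11.3, 9.73 and 4.90 CPM. Lines 3 and 4 were thus above all WT primary cultures and line 5 below them. In the Prkd3-/- libraries, Pparg was at 5.12, 2.71 and 3.87 CPM in primary cultures 13, 14 and 15 and at 2.18, 12.6, 19.9 and 8.61 CPM in lines 13, 13a, 14 and 15. Line 14, with 7.34 times the level of its own primary culture, held the highest Pparg of all libraries, and line 13, at the lowest, was below every primary culture. The log2 fold change of immortalized over primary cells (log2FC) of Pparg was 0.35 (SE 0.33, adjusted p = 0.608) in WT and 1.47 (SE 0.68, adjusted p = 0.788) in Prkd3-/- cells, by edgeR's quasi-likelihood test with Benjamini-Hochberg adjustment over all genes tested. The groups overlapped in both.

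Cebpb (chr2:167688915-167690418, plus strand) had the highest mean level per length of the members in each group. It had 77.3, 64.2 and 63.1 CPM in the WT primary cultures and 54.5, 89.4 and 170.3 CPM in lines 3, 4 and 5. It had 77.1, 61.3 and 69.7 CPM in the Prkd3-/- primary cultures and 49.4, 105.3, 92.0 and 74.3 CPM in lines 13, 13a, 14 and 15. Only WT line 5 exceeded the highest primary value of its genotype by over 2 times, and the log2FC was 0.62 (SE 0.41, edgeR adjusted p = 0.469) in WT and 0.20 (SE 0.28, adjusted p = 0.900) in Prkd3-/- cells.

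Cebpd (chr16:15887286-15891031, plus strand) stood out in the same line. The WT primary cultures had 31.6, 33.5 and 37.0 CPM of Cebpd, and lines 3, 4 and 5 had 16.9, 49.8 and 315.4 CPM. Line 5 was 8.53 times its primary culture and line 3 was 1.86 times lower than its own. The log2FC in WT of 1.91 (SE 1.03, edgeR adjusted p = 0.378) rested on that line, since it was -0.02 (adjusted p = 0.978) without it. Among the libraries labelled Prkd3-/-, Cebpd had 40.2, 48.3 and 43.7 CPM in primary cultures and 10.5, 35.4, 46.2 and 27.8 CPM in the lines, which were 3.83, 1.13, 1.05 and 1.57 times below their own primary culture in the order 13, 13a, 14 and 15. Lines 13a and 14 differed little from it, and against the mean of the Prkd3-/- primary cultures line 14 was 0.07 higher on the log2 scale. The fitted change was -0.56 (SE 0.45, adjusted p = 0.855). Of the exon bases of Cebpb 20.7% and of Cebpd 15% overlap an antisense neighbour (Tmem189 and Spidr), whose reads cannot be told apart from theirs in the WT table, where the counting ignored strand, while the setting for the other table is not given in the sources used here.

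Zfp423 (chr8:87661810-87959595, minus strand), the preadipocyte regulator, was below its own primary culture in every WT line and lay on both sides of it among the Prkd3-/- lines. Primary WT cultures 3, 4 and 5 had 6.30, 5.89 and 6.94 CPM of Zfp423, and their lines had 0.338, 2.13 and 1.33 CPM. All WT lines were below all WT primary cultures, by 18.6, 2.76 and 5.23 times against their own culture. Prkd3-/- primary cultures had 2.85, 3.79 and 2.27 CPM, and lines 13, 13a, 14 and 15 had 0.0763, 2.54, 24.6 and 8.58 CPM. Line 13, with 4 counts, was 37.3 times below its primary culture, 13a was within the primary range, and lines 14 and 15 were 6.49 and 3.78 times above their own. The log2FC was -2.33 (SE 0.62, edgeR adjusted p = 0.113) in WT and 1.59 (SE 1.35, adjusted p = 0.860) in Prkd3-/- cells, where it was 0.32 without line 14. The difference between the labels was 3.92 (SE 1.69) with an edgeR adjusted p of 1, so it did not pass the test over all genes.

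**Figure D1:**
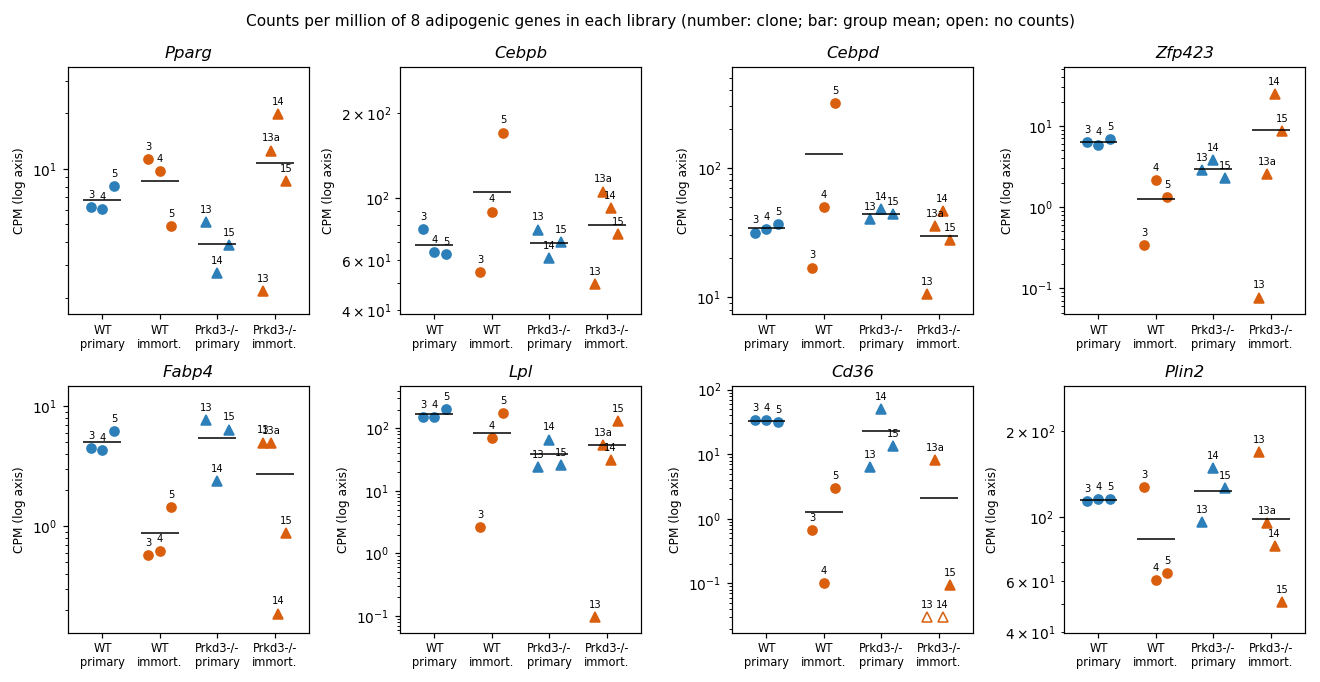
CPM on a log axis of the 8 members with measurable counts, by genotype label and state. Each point is a library with its clone number, bars are group means and open points stand for 0 counts, drawn at 0.03 CPM. WT primary libraries (blue circles) lie close together for every gene, while immortalized lines (orange) of 1 label spread over 67.9 times for Lpl in WT and 1378 times in Prkd3-/- cells.

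Among the lipid handling genes, Fabp4 (chr3:10204088-10208576, minus strand), which encodes a carrier of fatty acids in the cytoplasm, was lower than in the primary culture of the same number in all 7 lines. Against the mean of the primary cultures of its label it was lower in 5 of the 7, since lines 13 and 13a then differed by 0.02 and 0.01 on the log2 scale. Primary WT cultures 3, 4 and 5 had 4.51, 4.29 and 6.26 CPM of Fabp4, against 0.580, 0.626 and 1.45 CPM in their lines. The WT groups did not overlap, and the lines were 7.77, 6.85 and 4.32 times below their own culture. Prkd3-/- primary cultures 13, 14 and 15 had 7.68, 2.39 and 6.40 CPM and lines 13, 13a, 14 and 15 had 4.98, 4.93, 0.188 and 0.877 CPM. Lines 13 and 13a stayed within the range of the primary cultures, at 1.54 and 1.56 times below culture 13, while lines 14 and 15 were 12.8 and 7.30 times below their own. The log2FC was -2.50 (SE 0.43, edgeR adjusted p = 0.0309) in WT, short of the threshold of an adjusted p under 0.01, and -1.02 (SE 1.00, adjusted p = 0.877) in Prkd3-/- cells. With the clone number as a block, the adjusted p in WT was 0.0556. Of the 6 fits that left out 1 WT library, 1 passed the threshold, that without line 5 (-3.05), and over the 6 the edgeR adjusted p ran from 0.00394 to 0.134. Over both labels the log2FC was -1.70 (SE 0.67, edgeR adjusted p = 0.208). With the clone number as a block it was -2.46 (edgeR adjusted p = 0.0451), which also did not pass the threshold.

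Lpl (chr8:68880491-68907448, plus strand), the lipase that frees fatty acids from lipoproteins, differed between lines more than almost any other gene. Primary WT cultures 3, 4 and 5 had 151.0, 149.2 and 203.1 CPM of Lpl, and their lines had 2.61, 70.1 and 177.3 CPM. Line 3 was 57.9 times below its primary culture, line 4 was 2.13 times below, and line 5 was within the primary range. Prkd3-/- primary cultures had 24.0, 66.0 and 25.7 CPM, and lines 13, 13a, 14 and 15 had 0.0954, 53.8, 30.9 and 131.5 CPM. Line 13, with 5 counts of Lpl, was 250.9 times below the primary culture of its number, and line 13a was 2.25 times above the same culture. Line 15 was 5.12 times above its own. The log2FC was -1.01 (SE 1.19, edgeR adjusted p = 0.694) in WT and 0.48 (SE 1.41, adjusted p = 0.963) in Prkd3-/- cells, where it turned to -0.45 without line 15. In log2 CPM, the SD of Lpl between lines was 3.19 in WT, above that of 98.6% of genes, and 4.63 in Prkd3-/- cells, above 99.8%. The median gene had 0.351 and 0.563.

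Cd36 (chr5:17781690-17888801, minus strand), the fatty acid and scavenger receptor for which 1 internal promoter window is printed above, was below its own primary culture in 6 of the 7 lines. Primary WT cultures 3, 4 and 5 had 33.5, 33.5 and 31.3 CPM of Cd36, and their lines had 0.677, 0.102 and 3.00 CPM, which was 49.5, 329.7 and 10.4 times lower. The value of line 4 rested on 6 counts, near the floor, so its fold is imprecise. The WT groups did not overlap. Prkd3-/- primary cultures had 6.25, 49.4 and 13.3 CPM, and lines 13, 13a, 14 and 15 had 0, 8.18, 0 and 0.0944 CPM. Against the floor of 3 counts, Cd36 was at least 109.1 times lower in line 13 and at least 1053 times lower in line 14, and with 7 counts it was 140.8 times lower in line 15. Line 13a, 1.31 times above primary culture 13, was the exception, and it lay within the range of the Prkd3-/- primary cultures and at a log2 difference of -0.97 from their mean. The log2FC was -4.69 (SE 1.10, edgeR adjusted p = 0.0790) in WT and -3.47 (SE 2.08, adjusted p = 0.831) in Prkd3-/- cells. Without line 13a the groups of the latter no longer overlapped, and the value became -9.33 (adjusted p = 0.152), a size that depends on the lines at 0 counts. Without primary culture 14, the one with the most macrophage marker counts, it was -2.24 (adjusted p = 0.998).

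The level of Cd36 followed the macrophage markers closely from library to library, and other marker lists less closely. Over the 13 libraries, log2 CPM of Cd36 and of the summed macrophage markers had a Pearson correlation of 0.961, given as a description of libraries that share depth and genotype label. With skeletal muscle, endothelial and epithelial markers, Cd36 had 0.797, 0.229 and 0.147. Fabp4 had similar figures with these 4 lists, 0.604 with macrophage, 0.610 with epithelial, 0.561 with skeletal muscle and 0.503 with endothelial markers. Lpl had 0.497 with macrophage and -0.66 with epithelial markers, and Pparg had -0.27 and -0.54. With fibroblast markers, Cd36, Fabp4, Lpl and Pparg had 0.146, -0.233, 0.395 and 0.508. Line 13a, with the most Cd36 of the 7 lines, also had the highest macrophage sum among them, 337.9 CPM. The part of macrophages in the levels of Cd36, Fabp4 and Lpl was not tested, and in bulk RNA fewer cells of a type and less RNA per cell cannot be told apart. Levels of Lpl differed between lines with close macrophage sums. Lines 13, 14 and 15 had 17.8, 13.2 and 20.2 CPM of macrophage markers and 0.0954, 30.9 and 131.5 CPM of Lpl. Their sums were not made up of the same markers, since 2 of the 12 were above 3 counts in line 13 and 11 in lines 14 and 15. Csf1r alone ran from 8.32 to 38.5 CPM over the 4 Prkd3-/- lines, with a median of 13.6 CPM, so it was a large part of these low sums. Of its exon bases 15.1% overlap the antisense gene Hmgxb3, and whether the counting used strand is not given for these libraries. Of Fabp4, line 13 held 4.98 CPM, against 7.68 CPM in primary culture 13, and 8 of the 12 macrophage markers were at 0 in this line. The summed endothelial markers, 20.5 to 25.1 CPM in WT primary cultures and 2.16 to 12.4 CPM in WT lines, were also lower with Cd36 and Fabp4 in WT. Under the Prkd3-/- label they ran from 21.8 to 43.9 CPM in primary cultures and from 15.5 to 25.0 CPM in lines, and their part was not tested either. The skeletal muscle sum was 55.0 to 58.2 CPM in WT primary cultures and 6.56 to 40.7 CPM in WT lines, and 30.3 to 68.9 and 3.42 to 41.7 CPM under the other label. Its part was not tested, and nor was that of the epithelial sum, which was 10.8 to 15.5 and 0.796 to 38.0 CPM in WT and 8.86 to 62.0 and 2.29 to 130.3 CPM in Prkd3-/- cells. These 3 sums rested on few genes and do not show that the cell types were present. In WT primary cultures, mean CPM was 5.42 for Kdr and 6.79 for Tek but 0.119 for Pecam1 and 0.287 for Cdh5. It was 24.1 for Des and 30.9 for Acta1 but 0.0467 for Myog, and 10.0 for Krt19 but 0.0558 for Epcam.

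**Figure D2:**
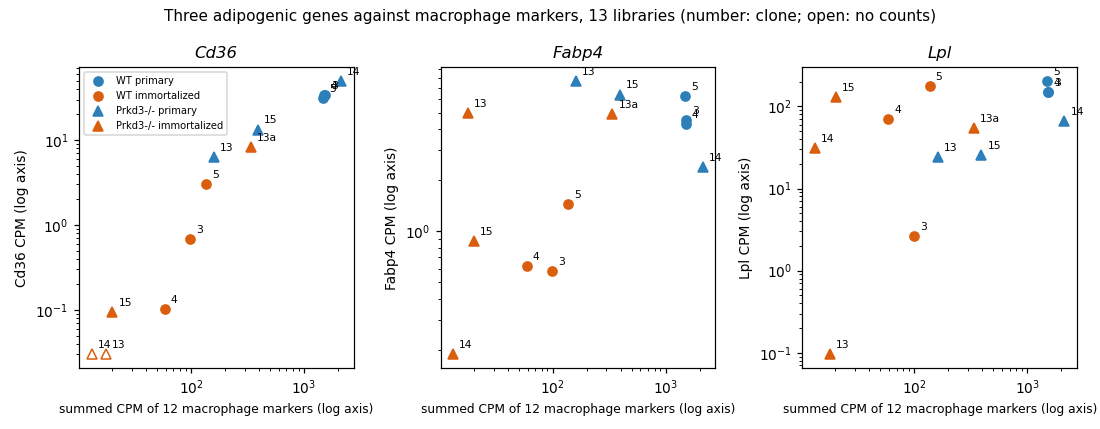
CPM of Cd36, Fabp4 and Lpl against the summed CPM of 12 macrophage markers, on log axes, for the 13 libraries. Points carry the clone number, blue is primary, orange immortalized, circles are WT, triangles Prkd3-/-, and open points are 0 counts drawn at 0.03 CPM. Cd36 follows the marker sum across the whole range, while lines 13, 14 and 15 share a low marker sum and hold 0.0954, 30.9 and 131.5 CPM of Lpl. Of the 12 markers, 2 were above 3 counts in line 13 and 11 in lines 14 and 15, so these lines are not matched marker by marker.

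Of the droplet coat genes, Plin2 (chr4:86648386-86670060, minus strand) was detected in every library, from 50.6 to 168.9 CPM. Primary WT cultures 3, 4 and 5 had 114.2, 115.9 and 116.0 CPM of Plin2, and their lines had 127.9, 60.3 and 64.1 CPM. Prkd3-/- primary cultures had 96.2, 148.3 and 126.9 CPM, and lines 13, 13a, 14 and 15 had 168.9, 95.7, 79.4 and 50.6 CPM. Line 3 in WT and line 13 in Prkd3-/- cells, the lines with the least Lpl, had the most Plin2 of their label. Lines 4, 5, 14 and 15 were 1.92, 1.81, 1.87 and 2.51 times below their own culture. The log2FC was -0.46 (SE 0.30, edgeR adjusted p = 0.471) in WT and -0.35 (SE 0.39, adjusted p = 0.886) in Prkd3-/- cells, and the groups overlapped.

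The remaining members, which mark mature fat cells, were at or near the floor. Plin1 (chr7:79720218-79732903, minus strand), the coat protein of the large droplet of the fat cell, had 0 counts in the 6 WT libraries, 4 counts in the Prkd3-/- primary cultures and 1 count in the Prkd3-/- lines. Adipoq (chr16:23146536-23158028, plus strand), which encodes adiponectin, had 21 counts in all 13 libraries. Of these, 11 were in Prkd3-/- line 14, at 0.172 CPM, and 4 in line 13a, and each other library had 3 or fewer. Line 14 was also the library with the highest Pparg and Zfp423. Plin1 and Adipoq did not pass the filter on low counts, so 8 of the 10 members were tested.

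Counted together, none of the 8 tested members passed an adjusted p under 0.01 with an absolute log2FC of at least 1 in WT by edgeR, where 1.82% of 19836 genes did. With clone number as a block, no gene of the 19836 passed. An unadjusted p under 0.05 was reached by 3 of the 8 members, Zfp423, Fabp4 and Cd36, and by 3905 of all genes. DESeq2, with the same thresholds, called these 3 lower, with adjusted p = 0.00135, 2.31e-07 and 4.65e-06, where it called 5.94% of genes in either direction and 5.39% lower, and limma called none. The same 3 were the members whose WT groups did not overlap, all of them lower in the lines, while 31.3% of genes did not overlap and 17.4% were lower in this way. The median log2FC of the 8 was -0.73, beside 0.04 over all genes.

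In Prkd3-/- cells, edgeR called 0 of the 8 members and 0% of 20298 genes, and DESeq2 called 0 members and 0.781% of genes. No member and 1331 genes had an unadjusted edgeR p under 0.05. The groups overlapped for all 8 members, while 9.45% of genes did not overlap. The median log2FC was -0.07, beside 0.07 over all genes. Over both labels, edgeR called no member and 0.698% of 21197 genes, with Fabp4 and Cd36 at an unadjusted p under 0.05 (3631 genes in all), and DESeq2 called no member and 3.27% of genes. The change of state differed between the labels for no member and for 0% of genes by edgeR at an adjusted p under 0.05, with Zfp423 and Cebpd among 841 genes at an unadjusted p under 0.05, and DESeq2 called no member and 0.178% of genes. The edgeR and DESeq2 p-values set each difference against the spread between these cultures, with 1 spread per gene shared by both states. In WT the states did not share it, since the coefficient of variation was 4.14% to 6.79% in primary libraries and 45.4% to 53.2% in lines. Lines 13 and 13a carry 1 culture number, and the labels do not say whether they are separate outgrowths, so they may not be independent. The WT primary libraries differed so little that their spread may be technical.

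**Figure D3:**
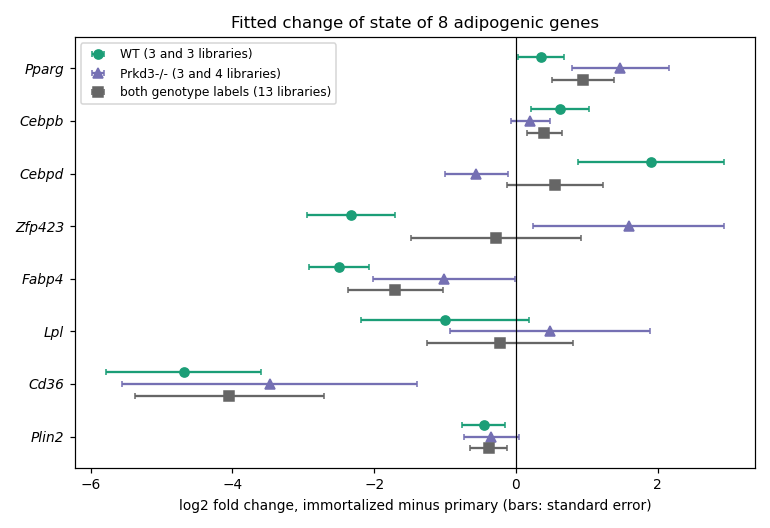
Fitted log2 fold change, immortalized minus primary, of the 8 tested members, with bars for the standard error of edgeR's fit, in WT (circles), Prkd3-/- (triangles) and both labels together (squares). Fabp4 and Cd36 lie below 0 in all 3 fits, Zfp423 lies at -2.33 in WT and at 1.59 in Prkd3-/- cells, and none passed the thresholds.

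Taken by line, each of the 7 had its own set of members above and below its primary culture. Line 13 had 7 of the 8 tested members lower and Plin2 alone higher, with Zfp423, Lpl and Cd36 at 0 to 5 counts each. Line 13a, of the same number, had 4 lower and 4 higher, and none of the 8 lower by over 2 times. Line 14 had Pparg and Zfp423 over 6 times higher but Fabp4 and Cd36 over 12 times lower. Line 15 had 4 lower and 4 higher, among them Lpl, Zfp423 and Pparg, each over 2 times higher. In WT, lines 3, 4 and 5 had 6, 5 and 6 of the 8 lower, and in all of them Zfp423, Fabp4 and Cd36 were among these. Lpl was lower as well, but in line 5 by 1.15 times only, within the primary range. With the mean of the primary cultures of the label as the reference, 5 differences changed sign, those of Fabp4 in lines 13 and 13a (0.02 and 0.01), Cd36 in line 13a (-0.97), Cebpd in line 14 (0.07) and Lpl in line 5 (0.09). Line 5 combined 8.53 times more Cebpd with 1.64 times less Pparg. Across the 13 libraries, log2 CPM of Lpl and Zfp423 had a correlation of 0.802 and Cebpb and Cebpd one of 0.862, whereas Pparg and Fabp4 had -0.60. These are descriptions over libraries that share labels and depth. The library with the most Pparg of all 13, line 14, had the least Fabp4.

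**Figure D4:**
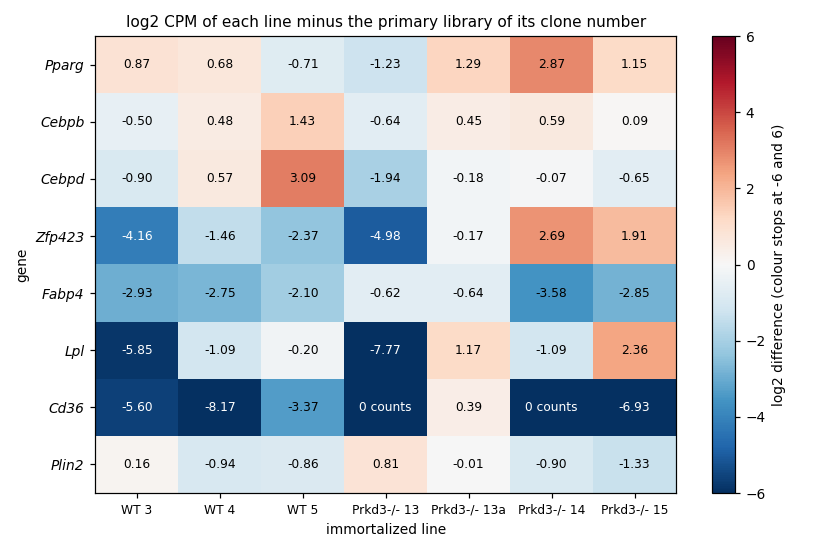
Difference in log2 CPM between each immortalized line (columns) and the primary library of its clone number (rows are genes), where blue is lower and red higher in the line. Fabp4 is below 0 in all 7 lines and Cd36 in all but line 13a, while Zfp423 and Lpl change sign between lines, from -4.98 to 2.69 for Zfp423. Cells marked 0 counts have no interpretable difference.

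Per length, in RPKM, the CPM divided by the exon length in kilobases, the WT primary cultures ranked Cebpb first (45.3 ± 5.24, SD, n = 3), then Plin2 (32.9 ± 0.279), Lpl (16.0 ± 2.92), Cd36 (9.12 ± 0.361), Cebpd (9.08 ± 0.735), Pparg (2.29 ± 0.372), Zfp423 (1.14 ± 0.0940) and Fabp4 (1.12 ± 0.240). Cd36 and Cebpd, and Zfp423 and Fabp4, were neighbours that did not differ beyond their spread. The deposited exon length of Fabp4, 4489 bases, equals its whole span with introns, which lowers its RPKM. In the WT lines Cebpb (69.6 ± 39.5 RPKM), Cebpd (34.0 ± 43.7 RPKM) and Plin2 (24.0 ± 10.8 RPKM) overlapped at the top, and Cd36 had dropped to 0.351 ± 0.428 RPKM, among Zfp423 and Fabp4 at 0.226 ± 0.160 and 0.197 ± 0.109 RPKM. In the Prkd3-/- primary cultures Cebpb had 46.1 ± 5.28 RPKM and Zfp423 was last with 0.530 ± 0.137 RPKM. In the Prkd3-/- lines (n = 4) Cebpb led with 53.4 ± 16.1 RPKM, and Cd36 and Fabp4 were last with 0.576 ± 1.14 and 0.611 ± 0.573 RPKM.

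The genes whose log2 CPM over the 13 libraries was most like that of a member were Ptpro, Themis2 and Pik3ap1 for Cd36, with Pearson correlations of 0.986, 0.985 and 0.984. For Lpl they were Adam23, Ifi27 and Tbxa2r, at 0.973, 0.961 and 0.957. For Fabp4 they were Klk10, Gm28309 and Hoxd11, at 0.948, 0.922 and 0.914, and for Pparg they were 1700020L24Rik, Nsmf and Neurl1b, at 0.897, 0.885 and 0.885.

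Other genes of the pathway were taken from 8 lists. In WT, edgeR called 1 gene in these lists, Rbp4, among 8 tested genes of a list of secreted adipocyte products. That list also held Adipor1, Adipor2, Cdh13 and Nnat, which do not encode secreted products, so its counts are not of such products alone. None was called among 21 tested transcription factors, 16 restrainers of adipogenesis and 18 genes of fatty acid uptake. Nor was any among 12 tested genes of droplets and lipolysis, 17 of fatty acid and triglyceride synthesis, 7 of brown and beige fat and 11 of preadipocytes. Each list held 1 to 6 genes with an unadjusted p under 0.05, beside 3905 of all 19836 genes, and 1 to 4 that DESeq2 called, beside 5.94% of all genes. The most by DESeq2 were 4 of the 11 listed brown and beige fat genes, of which edgeR tested 7. In Prkd3-/- cells and over both labels edgeR called none, with 0 to 2 and 1 to 4 genes per list at an unadjusted p under 0.05, and DESeq2 called 0 to 1 and 0 to 2 per list. Median log2FC in WT ran from -1.49 for brown and beige fat genes to 0.07 for restrainers, beside 0.04 over all genes. Rbp4, which encodes the carrier of retinol in blood, fell from 3.10, 3.63 and 2.38 CPM in WT primary cultures 3, 4 and 5 to 0.0806, 0.169 and 0.168 CPM in their lines, a log2FC of -4.43 (SE 0.38, edgeR adjusted p = 0.00312). With the clone number as a block the adjusted p was 0.0436, and it was 0.0289, 0.0286 and 0.0226 without primary culture 3, 4 or 5, so the call was lost in each of these fits. In Prkd3-/- cells all 4 lines were below all primary cultures in Rbp4, with a log2FC of -1.80 (SE 0.88, adjusted p = 0.790).

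Cebpa, which encodes the C/EBP factor that works with PPARγ late in adipogenesis, had 21.6, 22.3 and 23.2 CPM in WT primary cultures and 1.51, 14.8 and 11.0 CPM in lines 3, 4 and 5. All WT lines were below the primary cultures (log2FC -1.29, SE 0.74, edgeR adjusted p = 0.404). Under the other label Cebpa had 9.32, 18.8 and 8.78 CPM in primary cultures and 6.47, 19.7, 65.5 and 3.02 CPM in lines 13, 13a, 14 and 15, highest in line 14 as was Pparg (log2FC 0.94, SE 0.99, adjusted p = 0.880). Dlk1, a preadipocyte gene that holds back fat cell formation, ran from 209.1 to 228.3 CPM in WT primary cultures and had 564.8, 43.2 and 151.1 CPM in lines 3, 4 and 5. Dlk1 ran from 84.7 to 128.4 CPM in Prkd3-/- primary cultures and had 12.9, 237.3, 350.4 and 350.8 CPM in the lines, the lowest in line 13. Pdgfra, a receptor of fibroblasts and their progenitors, ran from 147.8 to 156.8 CPM in WT primary cultures and had 27.5, 44.0 and 482.7 CPM in lines 3, 4 and 5. Pdgfra ran from 48.8 to 101.8 CPM in Prkd3-/- primary cultures and had 10.2, 97.2, 91.1 and 125.3 CPM in the lines. Line 13 was thus the lowest Prkd3-/- library for Pparg, Cebpb, Cebpd, Zfp423, Lpl, Dlk1 and Pdgfra. Fabp5, the fatty acid carrier of skin and macrophages, did not share the pattern of Fabp4, with 17.1 to 18.6 CPM in WT primary cultures and 12.3 to 26.7 CPM in WT lines. Lep and Ucp1, marks of mature white and brown fat cells, had at most 0.0483 and 0.0322 CPM in any library and were not detected beyond the floor of 3 counts.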

How the data were processed

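The authors sequenced poly-A RNA in read pairs. Per their methods for the WT libraries, pairs were mapped with STAR 2.7.10a to mm10, handled with SAMtools 1.18 and counted on genes of Ensembl release 102 (GRCm38) with featureCounts (Subread 2.0.6), and the file headers show that pairs were counted without strand and on every gene they overlapped. The submitters' processing notes name the same tools for the libraries labelled Prkd3-/-, whose counting options are not given in the sources used here. The authors deposited raw counts per gene without normalization in 2 tables with the same 55487 genes, of which 55141 were matched to a symbol.

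From these counts, CPM were computed with TMM factors over all 13 libraries, and RPKM with the deposited exon lengths. Log2 CPM used a prior count of 1. States were compared with edgeR 4.0.16 in R 4.3.3 (quasi-likelihood test, TMM, its filter on low counts, robust), in each genotype label, over both with the label as covariate, and as an interaction, with p-values adjusted over all genes tested. Thresholds were an adjusted p under 0.01 and a log2FC of at least 1 in size, or an adjusted p under 0.05 for the interaction. Values by line had no test. Counts of 3 served as the floor, and floors cover counting error only, since PCR copies are not independent molecules.

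The scripts were tested on simulated data. Alternatives included DESeq2 1.42.0, limma 3.58.1, other scalings and filters, a joint fit, leaving out each library, and the clone number as a block. WT numbers name the embryo (per the methods), and Prkd3-/- numbers the clone. Deviations of same-numbered libraries correlated at -0.0333, 0.0186 and -0.0393 in WT and between -0.283 and 0.142 in Prkd3-/- cells. Those of differently numbered libraries correlated between -0.0317 and 0.0617 in WT and between -0.305 and 0.337 in Prkd3-/- cells. Same-numbered pairs were thus not more alike than others, and a comparison with the own primary culture is a description by label. The members and lists were chosen with earlier results of these data known. All members are named, as are Cebpa, Dlk1, Pdgfra, Fabp5, Lep, Ucp1 and Prkd3, at most 4 called genes per list, and the 3 genes most like Pparg, Fabp4, Lpl and Cd36. Promoter windows are from RefSeq. Cebpd, Fabp4 and Lpl had no window in the table used here.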

Additional observations from a re-analysis of the deposited data

Results flagged for a closer look

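Of 8 members examined in the 4 Prkd3-/- immortalized lines, Cd36 had a library far from the others. Line 13a, at 8.18 CPM, lay apart from lines 13, 14 and 15 (0, 0 and 0.0944 CPM), with a gap to the nearest line of 0.989 of the whole range, above the limit used for 4 samples (Dixon's gap test at 95%). Chance gives such a gap in about 1 of 20 groups of normally spread values. That rate does not hold here, since the values were CPM with lines 13 and 14 at 0 counts. In log2 CPM line 13a was at 3.04, line 15 at -3.20 and lines 13 and 14 at -6.10, so the size of the gap depends on the scale. The macrophage marker sum of line 13a was 337.9 CPM, against 17.8, 13.2 and 20.2 CPM in lines 13, 14 and 15, and its part was not tested.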

How the results depend on the processing

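Genes called in WT (361) numbered 1361 by DESeq2, 198 by limma, 157 with at least 10 counts in every library, 868 at an adjusted p under 0.05, 0 with all 13 libraries in the fit, 0 with the replicate block and 48 to 743 with 1 library left out (743 without line 5). Members called in WT (0) numbered 3 by DESeq2, 1 (Fabp4) at an adjusted p under 0.05 and 0 to 1 with 1 library left out. In Prkd3-/- cells (0 genes called) DESeq2 gave 190 and the joint fit 1. Over both labels (148) the counts were 859 by DESeq2, 7 with at least 10 counts, 90 by limma, 18 with the replicate block, 543 at an adjusted p under 0.05 and 31 to 408 with 1 library left out (408 without line 13a). The interaction (0) gave 37 by DESeq2 and 0 to 2 with 1 library left out (2 without line 14). No call of a member changed with the block.

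Among log2FC values, signs turned for members that were not called. With limma, Zfp423 was -0.11 and Lpl -1.35 in Prkd3-/- cells, and the interaction of Cd36 was -1.67. With lines 13 and 13a summed, the interaction of Plin2 was -0.0939. With 1 library left out, Cebpd ran from -0.0247 to 2.43 in WT and from -0.34 to 0.82 over both labels, Lpl from -0.45 to 1.12 in Prkd3-/- cells and from -0.73 to 0.10 over both, and Zfp423 from -0.99 to 0.29 over both (0.29, 0.01 and 0.16 without WT line 3, 4 or 5). The interaction ran from -0.74 to 0.11 for Cebpb, from -4.59 to 2.89 for Cd36 and from -0.26 to 0.54 for Plin2. The cause was not tested in any of these. The other 560 member values kept their sign and their side of the thresholds, and 5 passed them, all in WT (Zfp423, Fabp4 and Cd36). Depth limits Plin1 and Adipoq, which were at or near the floor of 3 counts. The same holds for Cd36 in Prkd3-/- lines 13 and 14 (0 counts each) and 15 (7 counts) and in WT line 4 (6 counts). It also holds for Zfp423 (4 counts) and Lpl (5 counts) in line 13.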
